A study of Homo sapiens with 3 samples.

Results

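The 31 genes described here carry out homologous recombination, Fanconi anaemia crosslink repair and mismatch repair. They were picked by symbol, as genes of repair pathways known for lower expression in hypoxia; the rule uses no measured value, although earlier results of these libraries were known when the set was drawn up. Each symbol matched 1 of the 61533 genes in the deposited tables. Hep3B, a human liver cancer cell line of wild-type genotype per the labels, was grown in 3 conditions with 1 poly(A)-selected RNA-seq library each: normoxia (20% O2), hypoxia (1% O2) and hypoxia with sodium oxamate (1% O2). Oxamate is a pyruvate analogue that inhibits lactate dehydrogenase. The series' text gives a treatment of 48 hours, and the oxamate dose is not given in the sources used here. All 3 cultures shared the same line and serum-containing medium, and no library received oxamate at 20% O2. With 1 library per condition there is no replicate check, so no p-value is given and a 95% interval covers counting error only.

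Homologous recombination mends broken chromosomes by copying the intact sister chromatid: the break ends are trimmed to single strands, BRCA1, PALB2 and BRCA2 prepare the exposed strand, and that strand then invades its homologue. The Fanconi pathway detects a crosslink between the DNA strands at a stalled fork, tags FANCD2 and FANCI with ubiquitin through a core complex, and hands the opened break to recombination. Mismatch repair removes copying errors behind the fork. All of these work chiefly while DNA is being copied, and in many tumour lines their transcripts are known to be lower in hypoxia and to rely on E2F factors.

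The libraries held 27412147 counted fragments in normoxia, 26309340 in hypoxia and 24826365 in hypoxia with oxamate. Levels are deposited FPKM, fragments per kilobase of exon after division by library size. Ratios are of whole fragments recovered from the FPKM and scaled by trimmed mean of M values, and a gene counts as measured when its higher library has 50 fragments or more. Of the 31 genes, 30 were measured and RAD50 was not. Hepatocyte and hepatoma markers were abundant and summed to 34492, 22048 and 12976 scaled CPM (fragments relative to library size) in normoxia, hypoxia and hypoxia with oxamate. That order of conditions is the same as the order of the median repair gene, and its part in the results was not tested. Of the 12 markers, 11 had a ratio below 1 in hypoxia against normoxia, and TF alone was higher, at 3.38 (3.35 to 3.42). CD3E, HBB, KDR, DCN and ACTA2, markers of blood, endothelium and stroma, had 0 fragments in every library. The summed blood list ranged from 34.8 to 62.1 (most of it LYZ), the endothelial list from 1.55 to 20.4 (most of it PECAM1) and the stromal list from 30.3 to 35.7. Other markers of these lists were counted and differed in direction. In normoxia, hypoxia and hypoxia with oxamate, CD14 had 140, 22 and 17 fragments and PECAM1 33, 230 and 499. In the stromal list LUM had 397, 412 and 580 fragments and PDGFRB 315, 438 and 110. In a bulk culture, fewer cells in S phase and less repair RNA per cell cannot be told apart.

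The members differ in what their promoters carry. RefSeq windows from 250 bases before to 50 bases after a transcript start (GRCh38.p14) were found for 29 members, 41 windows in all, and those of 1 gene can overlap. Both strands were searched for E2F words (TTTGGCGC, TTTCCCGC, TTTCGCGC and TTTGCCGC), the cell cycle homology region or CHR (TTTGAA and TTCGAA), the E-box CACGTG, the hypoxia response core or HRE (ACGTG and GCGTG, of which the first also lies inside the E-box), CCAAT and the GC box GGGCGG. An E2F word was in 9 of 41 windows (22%), against 4.09% of 21424 windows of protein-coding genes. The windows with one belonged to EXO1, FANCA, FANCC, FANCD2, MSH3, MSH6, XRCC2 and, with 2 windows, PMS2. The HRE core was in 70.7% of the members' windows and 54.9% of coding windows, and the GC box in 75.6% and 56.8%. CCAAT was in 36.6% against 34.9%, the E-box in 7.32% against 8.34%, and the CHR in 4.88% (BRIP1 and FANCC) against 13.7%. These are matches of letters, with no measurement of binding in the series.

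A set of 6 windows is printed 5′ to 3′ along the gene's strand, with matches to the E2F, CHR, E-box, HRE and CCAAT words in capitals. RAD54L (chr1:46247438-46247737, plus strand) and FANCE (chr6:35452088-35452387, plus strand) had the largest differences between hypoxia and normoxia, and RAD51D (chr17:35119811-35120110, minus strand) 1 of the smallest among genes with at least 200 fragments. FANCL (chr2:58241276-58241575, minus strand), the member called higher in hypoxia, and FANCD2 (chr3:10026187-10026486, plus strand) and EXO1 (chr1:241847954-241848253, plus strand), the lowest ratios with oxamate, were added after their values were seen.
RAD54L: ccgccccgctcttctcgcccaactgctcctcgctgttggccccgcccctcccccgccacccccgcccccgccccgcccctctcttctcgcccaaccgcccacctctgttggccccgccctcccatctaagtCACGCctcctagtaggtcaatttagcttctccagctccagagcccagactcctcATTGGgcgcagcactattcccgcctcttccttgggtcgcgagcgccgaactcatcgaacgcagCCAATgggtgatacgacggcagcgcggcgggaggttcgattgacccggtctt
FANCE: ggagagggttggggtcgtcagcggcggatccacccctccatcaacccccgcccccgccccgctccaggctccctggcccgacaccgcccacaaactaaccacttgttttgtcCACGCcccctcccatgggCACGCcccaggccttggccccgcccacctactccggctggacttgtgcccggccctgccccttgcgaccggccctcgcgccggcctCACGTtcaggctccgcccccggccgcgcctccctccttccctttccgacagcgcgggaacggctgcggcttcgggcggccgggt
RAD51D: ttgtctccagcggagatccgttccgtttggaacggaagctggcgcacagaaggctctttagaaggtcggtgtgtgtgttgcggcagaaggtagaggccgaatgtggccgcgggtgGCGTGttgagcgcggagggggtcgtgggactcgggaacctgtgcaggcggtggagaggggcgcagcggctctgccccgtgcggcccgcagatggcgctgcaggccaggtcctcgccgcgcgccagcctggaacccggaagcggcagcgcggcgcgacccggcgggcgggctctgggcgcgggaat
FANCL: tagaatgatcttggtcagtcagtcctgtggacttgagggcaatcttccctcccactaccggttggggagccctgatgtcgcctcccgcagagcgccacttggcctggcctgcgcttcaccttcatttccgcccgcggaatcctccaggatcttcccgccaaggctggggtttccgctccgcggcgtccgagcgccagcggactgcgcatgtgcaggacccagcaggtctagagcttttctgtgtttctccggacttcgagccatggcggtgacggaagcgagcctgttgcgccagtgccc
FANCD2: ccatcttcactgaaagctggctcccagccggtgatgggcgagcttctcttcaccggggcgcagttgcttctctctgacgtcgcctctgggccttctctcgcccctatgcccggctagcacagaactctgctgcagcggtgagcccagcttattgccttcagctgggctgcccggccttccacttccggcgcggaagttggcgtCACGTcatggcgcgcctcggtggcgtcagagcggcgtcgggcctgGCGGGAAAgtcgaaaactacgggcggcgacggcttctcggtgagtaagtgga
EXO1: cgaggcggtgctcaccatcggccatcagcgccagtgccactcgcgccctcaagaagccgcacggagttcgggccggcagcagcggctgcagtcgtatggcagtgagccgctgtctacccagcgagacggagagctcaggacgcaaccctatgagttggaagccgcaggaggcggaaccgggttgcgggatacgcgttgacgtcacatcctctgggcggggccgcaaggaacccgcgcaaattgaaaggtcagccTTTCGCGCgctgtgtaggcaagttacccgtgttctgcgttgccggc
Positions count from the transcript's first base as 1, with bases before it negative. RAD54L had an HRE core on the reverse strand at -119 and CCAAT boxes at -65 and -2, and no E2F word. FANCE had HRE cores at -138, -120 and -34 and a GC content of 73.7%, the highest of the 6. RAD51D, at almost the same level in both oxygen conditions, also had an HRE core, at -135. FANCL held none of the capitalised words and 1 GC box. FANCD2 had an HRE core at -47 and an E2F word at -2, and EXO1 an E2F word at 5.

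In hypoxia against normoxia the repair genes were mostly somewhat lower. Of 30 measured, 24 had a ratio below 1, as did about 60% of measured protein-coding genes. For 20 members the whole interval lay below 1 (46.9% of all measured genes). For 3 it lay above 1 (BRCA2, FANCB and FANCL), where 33.3% of all measured genes did. The median log2 ratio was -0.23, beside -0.11 for all 13554 measured genes and -0.16 for the protein-coding ones. Scaling by total fragments moved the members and all genes together, to -0.069 and 0.04. Past 1.5-fold, 5 members were lower (RAD51C, RAD54L, EXO1, FANCE and FANCG), 16.7% where 21.9% of all measured genes were. FANCL alone was higher, where 18.7% of all genes were. Scaled by total fragments, upper quartile or protein-coding genes, the split was 2 higher (FANCL and FANCB) and 3 lower (RAD54L, EXO1 and FANCE). Past 2-fold, RAD54L and FANCE were lower (8.07% of all genes) and none was higher (10.8% of all genes).

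With oxamate in hypoxia against hypoxia alone, every measured member had a ratio below 1, as did about 52% of measured protein-coding genes. FANCC, at 0.991 (0.893 to 1.10), was just above 1 (log2 0.0036) when scaled on protein-coding genes. Whole intervals lay below 1 for 25 of 30, where 36.2% of all 13739 measured genes did so. The median log2 ratio was -0.37, beside -0.01 for all genes and -0.03 for the protein-coding ones. Past 1.5-fold, 10 members (33.3%) were lower, where 13.8% of all genes were, and none was higher (13.7% of all genes). Past 2-fold, 4 were lower (EXO1, FANCD2, BRIP1 and RAD51B), 13.3% of members beside 5.07% of all genes, and none was higher (5.92% of all genes).

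Hypoxia with oxamate against normoxia joins the same libraries, so its values are not separate evidence. Its median log2 ratio was -0.76, beside -0.11 for all 13597 measured genes. Past 1.5-fold, 18 members (60%) were lower (28.7% of all genes), and FANCL was higher (24.3%). Past 2-fold, 8 were lower (15.3% of all genes) and none higher (15.4%). These 8 were EXO1, RAD54L, FANCD2, RAD51C, FANCE, BRIP1, NBN and PMS2.

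**Figure D1:**
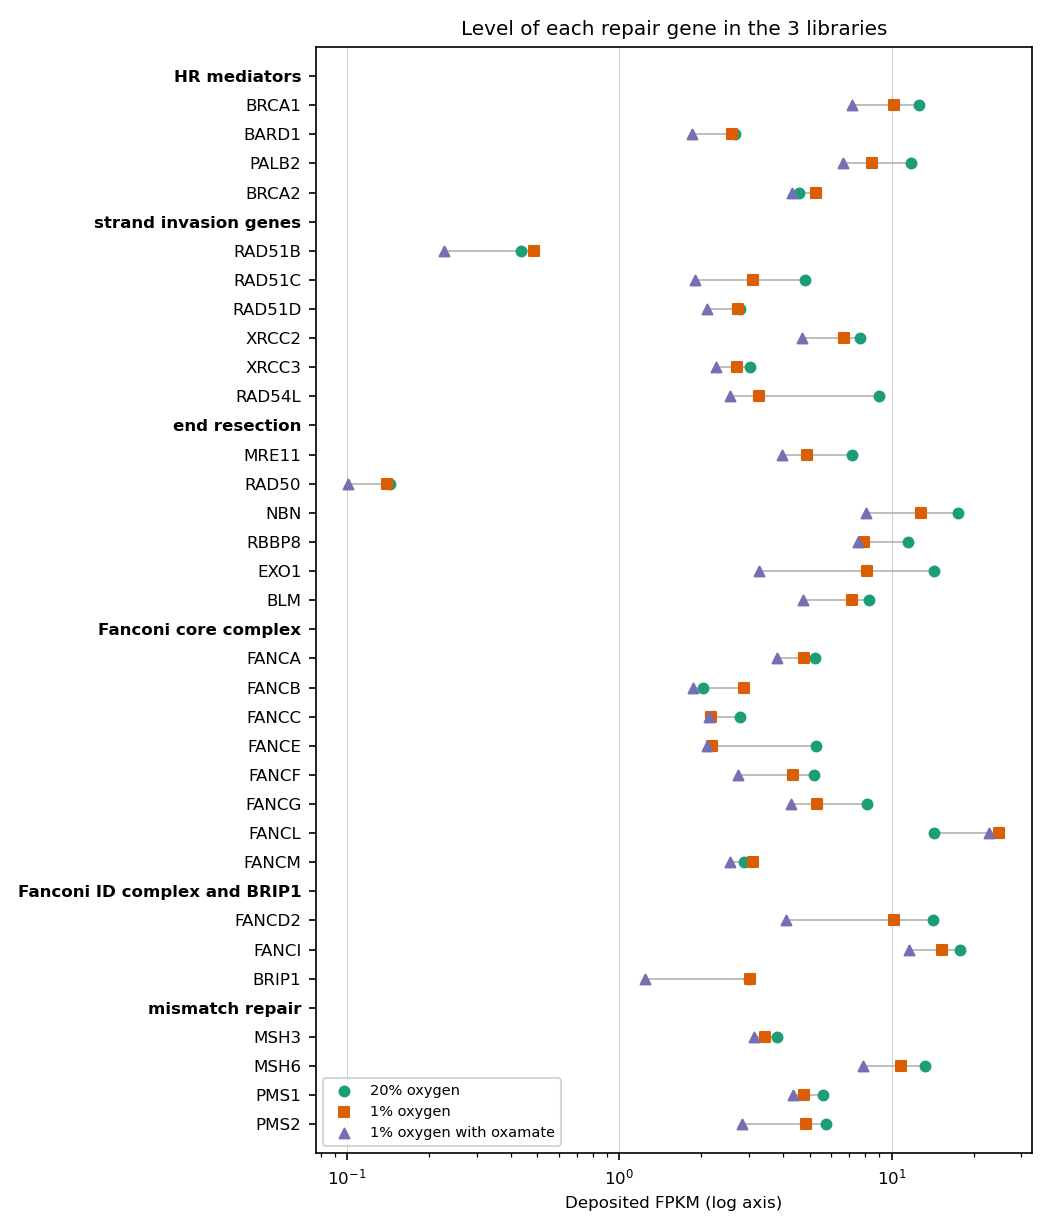
Deposited FPKM (log axis) of the 31 repair genes, grouped by role, in the 20% O2, 1% O2 and 1% O2 with oxamate libraries, 1 point per library. The oxamate point is the lowest for most genes, FANCL is the exception with its lowest point in normoxia, and RAD50 and RAD51B lie under 0.5 FPKM in every library.

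**Figure D2:**
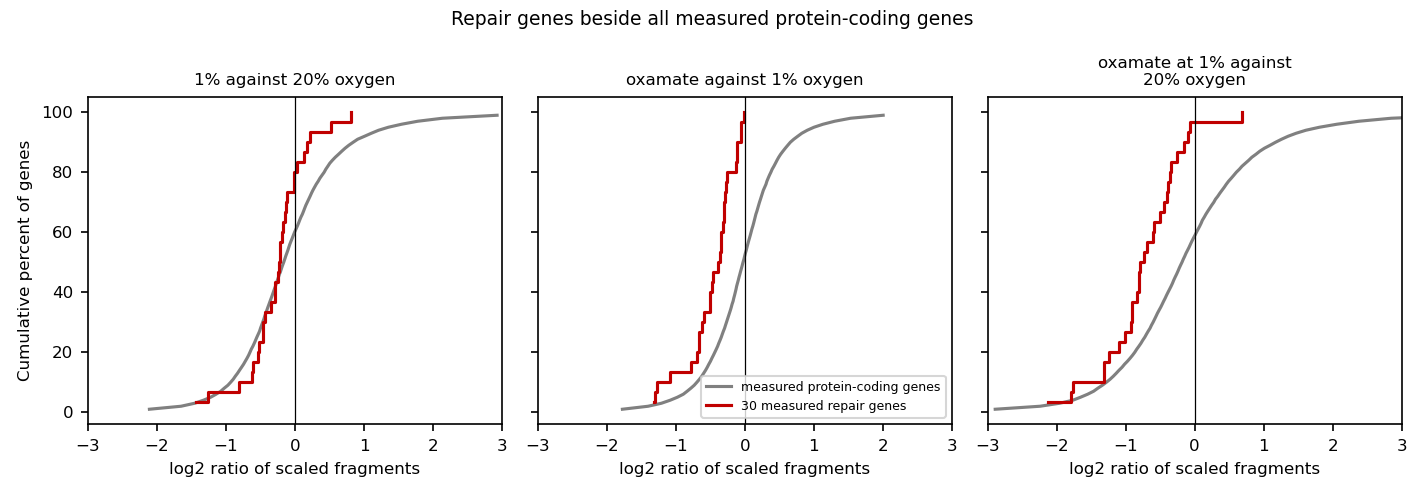
Cumulative percent of genes against log2 ratio for the 30 measured repair genes (red steps) and all measured protein-coding genes (grey), 1 panel per comparison. The red steps lie close to the grey line in 1% against 20% oxygen and to its left in both oxamate panels: all 30 are below 0 in oxamate against 1% oxygen, and 29 in oxamate against 20% oxygen, with FANCL above.

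Among the genes that prepare the strand for invasion, BRCA1 was the highest in level and was lower at each step. Its FPKM was 12.7 in normoxia, 10.2 in hypoxia and 7.15 with oxamate, from 3029, 2649 and 1682 fragments. BRCA1 is the scaffold that steers a break toward recombination. Its level was 1.22-fold lower in hypoxia (1.16 to 1.29) and a further 1.42-fold lower with oxamate (1.34 to 1.51). BARD1, its RING-domain partner, was less abundant at 2.65, 2.58 and 1.85 FPKM, so it barely differed between oxygen conditions and was 1.39-fold lower with oxamate (1.21 to 1.59). PALB2 bridges BRCA1 to BRCA2. It stood at 11.8, 8.47 and 6.64 FPKM, 1.38-fold lower in hypoxia (1.28 to 1.5) and 1.27-fold lower with oxamate (1.16 to 1.39). BRCA2, which acts on the single-stranded DNA at the break, went the other way in hypoxia. Its FPKM was 4.58 in normoxia, 5.27 in hypoxia and 4.30 with oxamate, a ratio of 1.16 in hypoxia (1.09 to 1.24) that was below 1 (log2 -0.063) once a trend on gene length was removed. With oxamate BRCA2 returned to a level close to normoxia, at a ratio of 0.954 (0.887 to 1.03). None of these 4 passed 1.5-fold in either single step, and BRCA1 and PALB2 did across both, at 1.74-fold (1.64 to 1.85) and 1.75-fold (1.61 to 1.91) lower.

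RAD54L, a motor protein that drives strand invasion, had the largest difference of any member between the oxygen conditions. Its FPKM was 8.95 in normoxia, 3.26 in hypoxia and 2.54 with oxamate, from 939, 370 and 262 fragments. Its value in the normoxia library was well above those in both hypoxic ones. RAD54L was 2.72-fold lower in hypoxia (2.41 to 3.07) and 1.28-fold lower again with oxamate (1.09 to 1.5). Of its exon bases, 25.1% lie in exons of LRRC41 on the other strand. LRRC41 itself was 1.51-fold lower in hypoxia (1.39 to 1.64) and had a ratio of 1.2 with oxamate (1.10 to 1.32). The library protocol in the labels names no strand-marking step, so reads of such overlapping genes may not be separable.

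RAD51B, RAD51C, RAD51D, XRCC2 and XRCC3, which form small complexes that assist strand invasion, did not move alike. RAD51C belongs to both main complexes. It was lower at each step, with 4.79, 3.09 and 1.89 FPKM in normoxia, hypoxia and oxamate, 1.54-fold lower in hypoxia (1.37 to 1.72; past 1.5-fold in 6 of 9 settings) and 1.62-fold lower with oxamate (1.40 to 1.88). RAD51D had 2.78, 2.72 and 2.10 FPKM, nearly level between oxygen conditions and 1.29-fold lower with oxamate (1.16 to 1.43). Some of its exon bases (9.4%) are shared with a readthrough transcript of the same strand. XRCC2, the partner of RAD51D, had 7.68, 6.71 and 4.68 FPKM and was 1.43-fold lower with oxamate (1.28 to 1.59). RAD51B was scarce at 0.437, 0.486 and 0.227 FPKM, from 84, 101 and 43 fragments. Its ratio of 1.12 in hypoxia had an interval that held 1 (0.833 to 1.52), and it was 2.12-fold lower with oxamate with a wide interval (1.47 to 3.11). XRCC3 pairs with RAD51C. It had 3.02, 2.71 and 2.25 FPKM, but 76.7% of its exon bases lie in exons of KLC1 on the other strand, and KLC1 had a ratio of 1.63 in hypoxia (1.51 to 1.76).

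Among the genes that trim break ends, EXO1 had the lowest ratio with oxamate of all members. EXO1 is an exonuclease that lengthens the single strand at breaks and also removes the mismatched strand in mismatch repair. It had 14.4 FPKM in normoxia, 8.13 in hypoxia and 3.26 with oxamate, from 1529, 935 and 341 fragments. The 3 libraries differed by more than counting error, with 1 library per condition. EXO1 was 1.75-fold lower in hypoxia (1.61 to 1.90), 2.48-fold lower with oxamate (2.19 to 2.81) and 4.34-fold lower across both (3.85 to 4.89). None of its exon bases overlap another gene. BLM, a helicase that works with EXO1 and dissolves joined chromatids, had 8.28, 7.17 and 4.72 FPKM. It was 1.14-fold lower in hypoxia (1.07 to 1.23) and 1.51-fold lower with oxamate (1.39 to 1.64).

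MRE11, RAD50 and NBN form the complex that first binds a break, and RBBP8 (CtIP) activates its nuclease. MRE11 had 7.18, 4.88 and 3.95 FPKM in normoxia, hypoxia and oxamate, 1.46-fold lower in hypoxia (1.34 to 1.58). NBN had 17.6, 12.9 and 8.07 FPKM, 1.36-fold lower in hypoxia (1.28 to 1.43) and 1.58-fold lower with oxamate (1.48 to 1.70). RBBP8 had 11.5, 7.90 and 7.53 FPKM, so its difference lay between oxygen conditions, at 1.44-fold lower (1.33 to 1.55), and its ratio with oxamate was 0.959 (0.879 to 1.05). RAD50 was listed at only 0.144, 0.140 and 0.101 FPKM, from 39, 41 and 27 fragments. Exons of another gene model on the same strand cover 79.7% of its exon bases, and that model was listed at 0 in every library. The part of that overlap in the low value was not tested. RAD50 is left out of every count of measured members, but its promoter window, exon length, GC and FPKM are included.

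**Figure D3:**
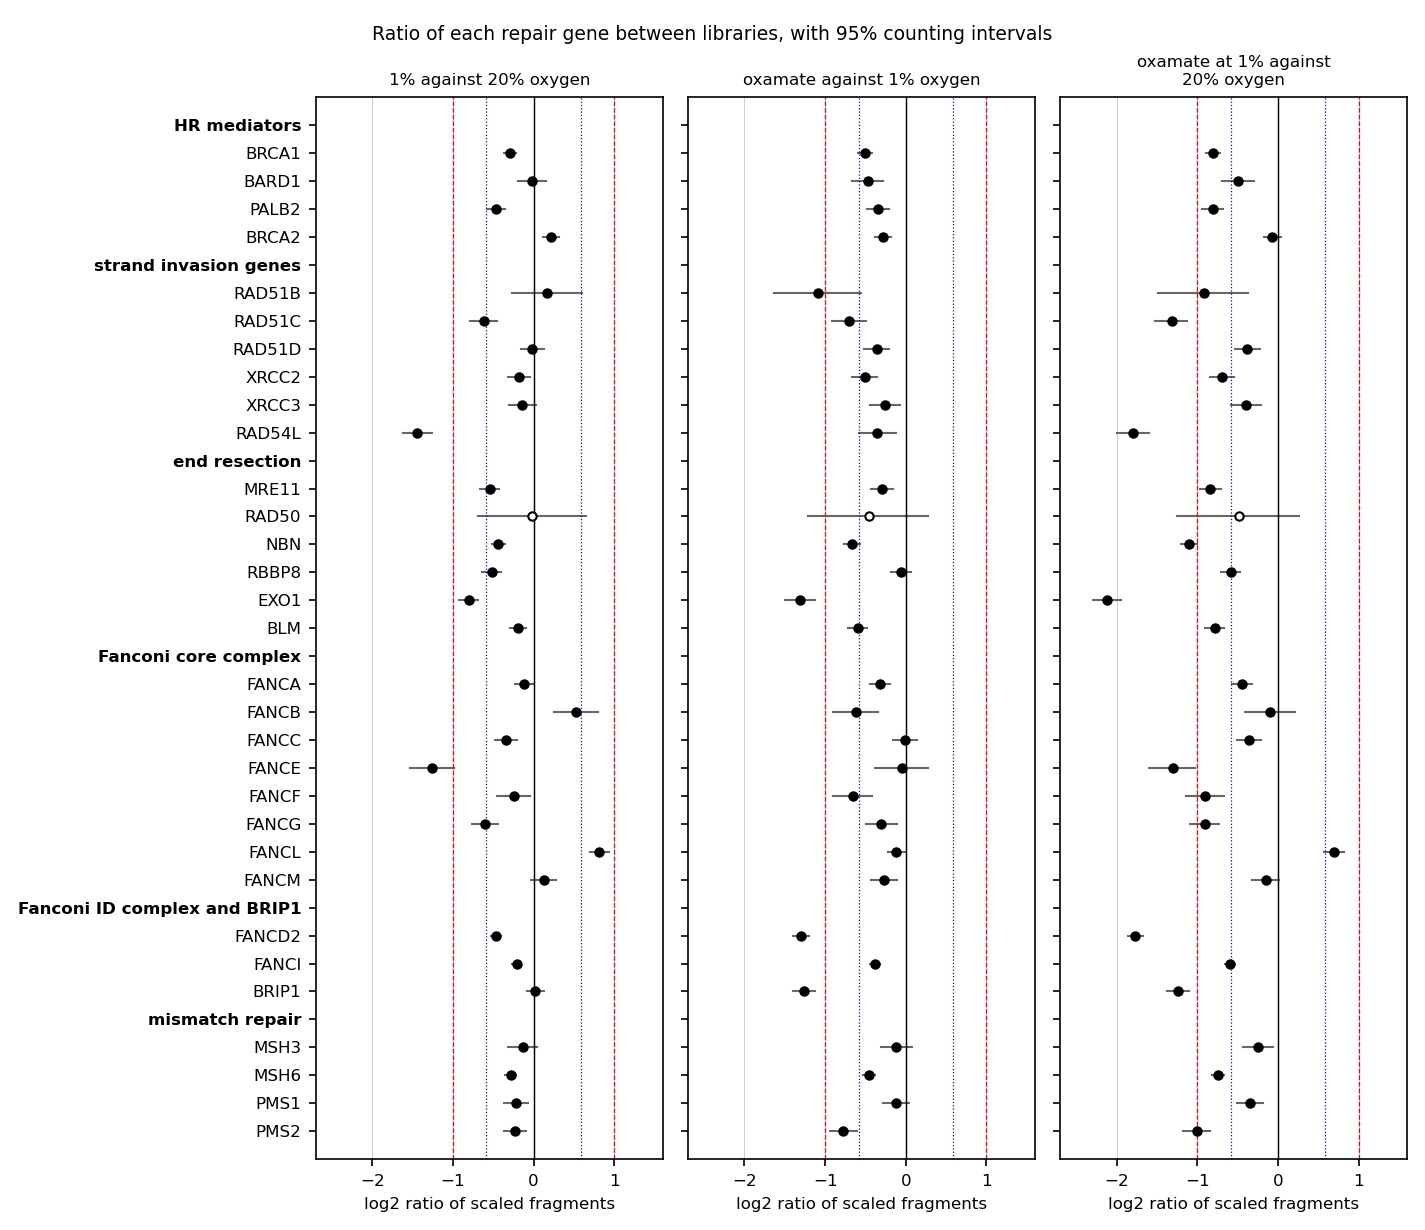
Log2 ratio of scaled fragments for each repair gene in the 3 comparisons, with 95% counting intervals as bars. Dotted and dashed lines mark 1.5-fold and 2-fold, and the open circle is RAD50, which had under 50 fragments. RAD54L and FANCE lie past the lower 2-fold line in the first panel, and RAD51B, EXO1, FANCD2 and BRIP1 in the second.

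The Fanconi core complex held the lowest ratio in hypoxia after RAD54L and also the only higher call. FANCE, the subunit that binds FANCD2, had 5.28 FPKM in normoxia, 2.19 in hypoxia and 2.10 with oxamate, from 368, 165 and 144 fragments. The 2 hypoxic libraries were alike and the normoxia library was higher. FANCE was 2.39-fold lower in hypoxia (1.98 to 2.89) and had a ratio of 0.965 with oxamate (0.767 to 1.21). FANCL is the ubiquitin ligase of the complex. It had 14.3 FPKM in normoxia, 24.9 in hypoxia and 22.8 with oxamate, from 890, 1670 and 1392 fragments. Here both hypoxic libraries were above normoxia, the reverse of FANCE. FANCL was 1.75-fold higher in hypoxia (1.62 to 1.90), with a ratio of 0.922 with oxamate (0.858 to 0.991). VRK2 on the other strand covers most of the 19.7% of FANCL exon bases that overlap another gene, and VRK2 had a ratio of 0.795 in hypoxia (0.714 to 0.884).

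The other 6 core subunits lay between these. FANCG, with 8.14, 5.30 and 4.27 FPKM, was 1.52-fold lower in hypoxia (1.36 to 1.70), and passed 1.5-fold in 4 of 9 settings. FANCB, an X-linked subunit that builds the catalytic module with FANCL, had 2.02, 2.87 and 1.86 FPKM: it peaked in the hypoxia library, at a ratio of 1.43 (1.19 to 1.73), and was 1.54-fold lower with oxamate (1.26 to 1.87). FANCF, an adaptor, had 5.20, 4.33 and 2.73 FPKM and was 1.58-fold lower with oxamate (1.34 to 1.86). FANCC, the partner of FANCE and FANCF, had 2.78, 2.16 and 2.13 FPKM and was 1.27-fold lower in hypoxia (1.15 to 1.40). FANCA had 5.22, 4.75 and 3.78 FPKM, with 23.6% of its exon bases in ZNF276. FANCM, the translocase that anchors the complex to DNA, had 2.88, 3.11 and 2.56 FPKM. Its ratio in hypoxia was 1.09 (0.978 to 1.21), an interval that held 1. Of the 8 core genes, FANCE and FANCG (25%) were lower past 1.5-fold in hypoxia, near the 21.9% of all measured genes. Only FANCL was higher (18.7% of all genes). With oxamate FANCB and FANCF (25%) were lower, beside 13.8% of all genes, and none was higher (13.7%).

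The targets of the core complex and the helicase that acts after them held 2 of the 3 lowest ratios with oxamate. FANCD2, the subunit whose ubiquitin marks an active pathway, had 14.2 FPKM in normoxia, 10.2 in hypoxia and 4.11 with oxamate, from 4338, 3353 and 1232 fragments. It was 1.38-fold lower in hypoxia (1.32 to 1.45) and 2.46-fold lower with oxamate (2.30 to 2.63). FANCI, with which FANCD2 forms a clamp on DNA, had 17.9, 15.3 and 11.6 FPKM. It was only 1.16-fold lower in hypoxia (1.11 to 1.2) and 1.31-fold lower with oxamate (1.25 to 1.37). The 2 clamp subunits were thus near each other in level in normoxia and further apart with oxamate. BRIP1 (FANCJ), a helicase bound to BRCA1, had 3.00 FPKM in normoxia, 3.02 in hypoxia and 1.25 with oxamate, from 1516, 1647 and 619 fragments. The libraries without oxamate were alike, and BRIP1 was 2.41-fold lower with it (2.19 to 2.64). The pseudogene FANCD2P2 had 0 fragments in every library.

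The 4 mismatch repair genes had the narrowest spread in hypoxia, with log2 ratios from -0.28 to -0.13 and none past 1.5-fold. MSH6, which finds single-base mismatches, was the most abundant at 13.3, 10.8 and 7.84 FPKM and was 1.37-fold lower with oxamate (1.3 to 1.45). FBXO11 on the other strand shares most of the 16.2% of MSH6 exon bases that overlap. MSH3, which finds larger loops, had 3.79, 3.41 and 3.13 FPKM and intervals that held 1 in both single steps. PMS1 had 5.61, 4.76 and 4.34 FPKM and a ratio of 0.918 with oxamate (0.822 to 1.02). PMS2 is the endonuclease that nicks the strand to be replaced. It had 5.75, 4.85 and 2.82 FPKM, from 921, 840 and 444 fragments, and was 1.71-fold lower with oxamate (1.52 to 1.92). PMS2 has near-identical copies between which counting may split reads: the pseudogene PMS2CL had 528, 622 and 653 fragments and the 12 PMS2P pseudogenes together 457, 466 and 387. PMS2CL thus held the most fragments in the library where PMS2 held the fewest, and the part of read assignment in the PMS2 ratio was not tested.

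Role medians in hypoxia were lowest for end resection (log2 -0.52) and within -0.23 to -0.16 for the other 5 roles. With oxamate they were lowest for FANCD2, FANCI and BRIP1 (log2 -1.27, the value of BRIP1), although FANCI was at -0.39. Next came end resection (-0.59), the strand invasion genes from RAD51B to RAD54L (-0.44), BRCA1 and its 3 partners (-0.41), and mismatch repair and the Fanconi core (both -0.29). FANCE and RAD54L, the lowest in hypoxia, had ratios of 0.965 and 0.783 with oxamate, while BRIP1 at 1.02 in hypoxia (0.946 to 1.09) had 0.416 with it. Both steps share the hypoxia library, so a correlation between them is not given. Members with an E2F word ranged widely in hypoxia with oxamate against normoxia, from 0.231 for EXO1 and 0.294 for FANCD2 to 0.781 for FANCC and 0.841 for MSH3.

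Of the members, 9 are described that share a start region with a measured gene transcribed the other way, whose start lies within 1000 bases, and these partners differed most from the repair genes with oxamate. In oxamate against hypoxia, 6 of 9 partners had a ratio above 1 and 0 of their 9 repair genes did. Of measured protein-coding genes, about 52% had a ratio below 1 there. The median log2 ratio was 0.33 for partners and -0.34 for the members. In hypoxia against normoxia the medians were close, -0.24 and -0.23. FANCF and GAS2 were the widest apart with oxamate: GAS2 had a ratio of 1.77 (1.61 to 1.95), and 11.3% of FANCF exon bases overlap it. MOSPD2, beside FANCB, had 1.57 (1.37 to 1.81), and ORMDL1, beside PMS1, 1.53 (1.39 to 1.68). NBR1, an autophagy receptor beside BRCA1, had a ratio of 1.6 in hypoxia (1.54 to 1.67) and 0.932 with oxamate (0.898 to 0.967). A further 2 partners were lower in both steps and, across them, more so than the repair gene: with oxamate against normoxia, AIMP2, beside PMS2, was 3.68-fold lower and FKBP3, beside FANCM, 1.82-fold lower. For PALB2, XRCC3 and MRE11 the partners DCTN5, ZFYVE21 and ANKRD49 had ratios of 1.08, 1.26 and 1.26 with oxamate. In 5 more pairs, of BRCA2, RAD51C (with 2 partners), RAD51D and RAD50, the partner did not reach 50 fragments.

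**Figure D4:**
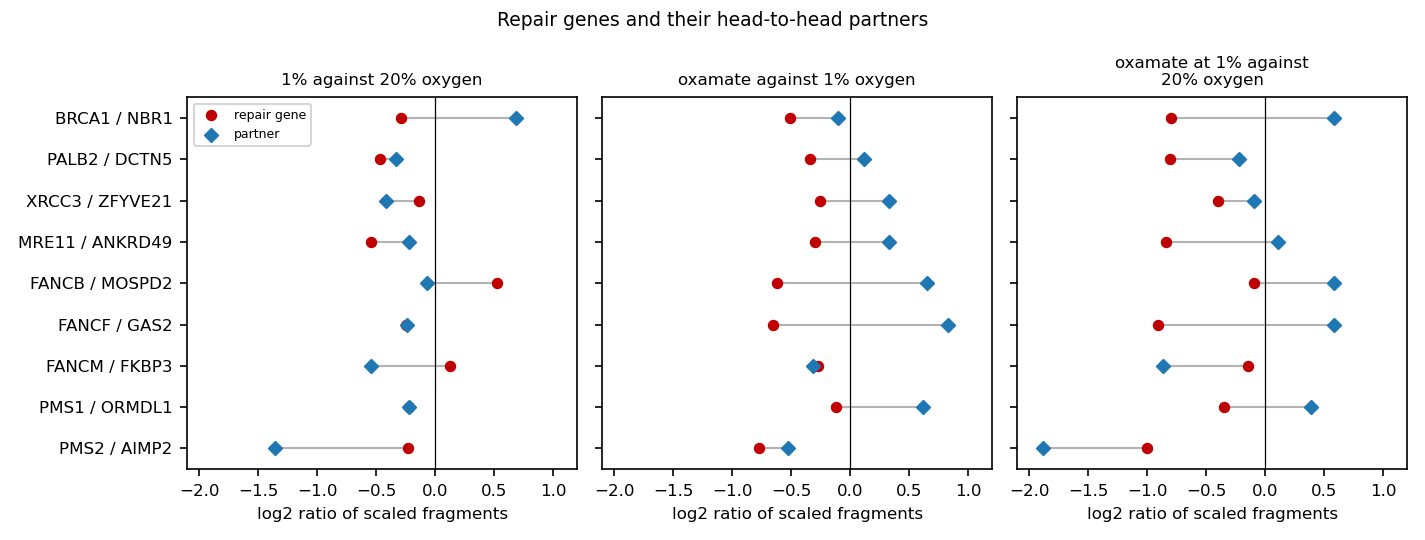
Log2 ratio of scaled fragments for 9 repair genes (red circles) and the oppositely transcribed gene at the same start region (blue diamonds), 1 panel per comparison. In oxamate against 1% oxygen 8 of 9 diamonds lie to the right of their circle, as do 5 of 9 in 1% against 20% oxygen.

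Other genes of the same pathways differed by list. The 25 further recombination genes had median log2 ratios of -0.25 in hypoxia, -0.39 with oxamate and -0.59 across both. Among them, 3 (12%) were lower and 2 higher past 1.5-fold in hypoxia, where 21.9% and 18.7% of all measured genes were. With oxamate 6 of 24 measured (25%) were lower and 2 higher, where 13.8% and 13.7% of all genes were. EME1, a junction-cutting nuclease subunit, was 2.41-fold lower with oxamate (interval of the ratio 0.342 to 0.501). RAD54B, the relative of RAD54L, was 2.16-fold higher in hypoxia (1.83 to 2.55), against the direction of RAD54L, although 59.1% of its exon bases overlap other genes. The 16 further Fanconi genes had medians of -0.15, -0.24 and -0.10. In hypoxia 4 (25%) were lower past 1.5-fold, near the 21.9% of all genes, and 2 were higher (18.7% of all genes). MAD2L2, a shieldin and polymerase subunit, was 2.05-fold lower. UBE2T, which supplies ubiquitin to FANCL, was 1.51-fold lower with oxamate, and ERCC1, a subunit of a crosslink-cutting nuclease, had a ratio of 1.73 there (1.62 to 1.86), with 28.6% of its exon bases shared. The 12 further mismatch repair genes were MLH3, LIG1, PCNA and genes of the RFC and POLD families. The medians of this list, made up mostly of RFC and POLD genes, were -0.51, -0.39 and -0.82. They were further below 0 than those of the 4 members of that role. In hypoxia 6 of the 12 (50%) were lower and 1 (POLD4) higher past 1.5-fold, where 21.9% and 18.7% of all genes were. Ratios were below 1 for 10 of the 12 in hypoxia, 9 with oxamate and 10 across both. MLH3 went against the medians, with ratios of 1.31 in hypoxia, 1.17 with oxamate and 1.54 across both. POLD2, a subunit of the polymerase that refills the gap, was 2.57-fold lower in hypoxia and 5.30-fold lower across both.

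For other repair routes, median log2 ratios in hypoxia and with oxamate were -0.13 and -0.19 for 15 end-joining genes, -0.40 and -0.32 for 23 damage-signalling genes, -0.33 and -0.22 for 18 nucleotide excision genes, and -0.59 and -0.24 for 20 base excision genes, beside -0.11 and -0.01 for all measured genes. The end-joining median in hypoxia was thus at the level of all genes. In hypoxia against normoxia, base excision repair had 10 of 19 measured genes lower past 1.5-fold and 0 higher. That was a larger share than the members' 5 of 30 and the 21.9% of all measured genes. With oxamate base excision repair had 4 of 19 lower and 1 higher, beside 10 of 30 members and 13.8% of all genes lower. CHEK2, a checkpoint kinase, was 2.88-fold lower with oxamate, 1 of 6 damage-signalling genes (26.1%) lower past 1.5-fold there. PAXX, an end-joining cofactor, was 2.92-fold lower. It was the only end-joining gene lower past 1.5-fold with oxamate, of 14 measured (7.14%), beside 13.8% of all genes. Ratios with oxamate were above 1 for 5 of those 14.

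Genes of DNA copying and division were lower in the same comparisons. Of 27 S phase genes, 12 were lower past 1.5-fold in hypoxia, 13 with oxamate and 24 across both, with median log2 ratios of -0.57, -0.52 and -1.26. Of 19 measured mitosis genes these counts were 7, 15 and 17, with medians of -0.41, -0.85 and -1.22. Of all measured genes, 21.9%, 13.8% and 28.7% were lower past 1.5-fold in the same comparisons. No S phase or mitosis gene was higher past 1.5-fold in any comparison, where 18.7%, 13.7% and 24.3% of all genes were. GINS1, GINS2 and GINS4, parts of the replicative helicase, were 2.23-, 2.19- and 2.11-fold lower with oxamate. The repair genes' medians were thus less far below 0 than those of both lists in every comparison, and the part of cell cycle state in the repair genes' values was not tested. Among 22 E2F, DREAM and related factors, the median was -0.29 in hypoxia and close to 0 with oxamate. MYC was 4.42-fold lower and its antagonist MXI1 2.54-fold higher in hypoxia, and E2F2 was 3.71-fold lower with oxamate. All 15 HIF target genes, such as CA9 and NDRG1, were past 2-fold higher in hypoxia (10.8% of all genes). With oxamate 8 were past 1.5-fold higher again (13.7% of all genes).

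**Figure D5:**
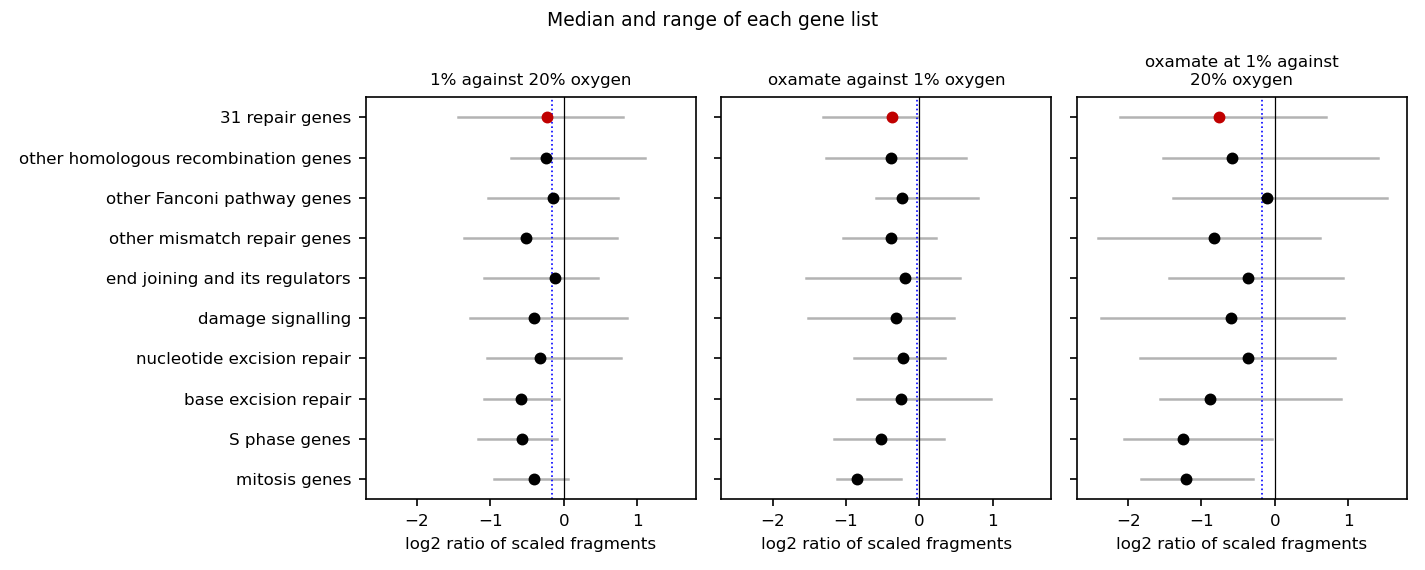
Median (points) and range (bars) of log2 ratio over the measured genes of the 31 repair genes (red) and 9 other lists, 1 panel per comparison; the dotted line is the median of all measured protein-coding genes. With oxamate against 1% oxygen, the repair genes' median of -0.37 lies between the S phase list at -0.52 and the end-joining list at -0.19.

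As a set the members were longer and lower in GC than other genes, and of ordinary abundance. Their median summed exon length was 7477 bases and their median exon GC 42.1%, against 5426 bases and 48.1% for measured protein-coding genes. Their median level was 5.61 FPKM in normoxia, 4.76 in hypoxia and 3.26 with oxamate, while that of protein-coding genes was 6.43, 5.76 and 5.73. So the members lay a little under the typical coding gene with oxygen and further under it with oxamate. FANCI and NBN had the highest levels in normoxia, and FANCL the highest in both hypoxic libraries.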

How the data were processed

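Deposited values are FPKM per gene, 1 table per library, per the file headers. The genome build was hg38, and edgeR 3.22.5, HISAT2 2.0.5, featureCounts 1.5.0-p3 and StringTie 1.3.3b had unspecified roles, per the submitters' processing notes. Libraries were poly(A)-selected from 3 µg RNA and primed with random hexamers, per the labels' protocols. FPKM times exon length was a whole multiple of 1 constant per library for 100% of values (tolerance 0.01), which returned whole fragments. The constants imply that the authors had scaled library totals by 0.938, 1.06 and 1.02. Trimmed-mean scaling (30% of ratios, 5% of abundances) on 21987 genes with at least 10 fragments gave 0.943, 1.05 and 1.01 in normoxia, hypoxia and hypoxia with oxamate. Ratios carry 95% Clopper-Pearson intervals, and medians use a prior count of 0.5. Exon overlap and GC come from GENCODE 29, promoters from RefSeq (Python 3.11.15, numpy 2.4.6, pandas 2.3.3, scipy 1.17.1, statsmodels 0.14.6, matplotlib 3.10.9). Scripts were tested on simulated counts. The members and lists were chosen with earlier results of these data known. Every member is named. Some items are not reported here. Of the other lists, genes at least 2-fold different were eligible by name, at most 4 per list and comparison, otherwise the highest and lowest. Alternatives were 4 other scalings, GC and length trends, filters, prior counts, interval-based calls and overlap exclusions.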

Additional observations from a re-analysis of the deposited data

How the results depend on the processing

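No median of the repair genes changed sign under any of 15 alternatives, of which those leaving out genes with at least 10% exon overlap or with readthrough models and near-identical copies were chosen after seeing the data. In hypoxia against normoxia the median moved from -0.23 to -0.069 with total-fragment scaling and -0.058 with the upper quartile, where the median of all genes moved from -0.11 to 0.04 and 0.05. Calls past 1.5-fold there went from 1 higher and 5 lower to 2 higher and 3 lower under total-fragment, upper-quartile or coding-gene scaling. Upper-quartile scaling put the oxamate against normoxia median at -0.60. Leaving out genes with any exon overlap left 14 members, an oxamate against hypoxia median of -0.60, and 10 members past 1.5-fold in oxamate against normoxia. With the whole interval required, 4 members passed 1.5-fold with oxamate against hypoxia and 1 passed 2-fold in hypoxia. That last count was also 1 without overlapping genes under either overlap limit, since RAD54L leaves. Of 744 single-gene values, 626 moved by less than their counting interval and 118 by more. No paired analysis was possible because there is 1 library per condition, and depth limits RAD50 and RAD51B most.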
